A study of Mus musculus with 8 samples.

Results

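The genes described here are the secreted and membrane-bound metalloproteinases of the MMP, ADAM and ADAMTS families and the TIMP proteins that inhibit them. They were taken as every single gene symbol on the array that begins with Mmp, Timp, Adam or Adamts followed by a number, which gave 78 of the 21626 genes measured: 23 MMPs, 4 TIMPs, 32 ADAMs and 19 ADAMTS proteases. Affymetrix arrays were used to compare 4 primary gastric adenocarcinomas, frozen fresh after arising spontaneously in mice with a transgene, with 4 normal gastric mucosa samples. Neither the transgene and its promoter nor the strain, sex or age of the mice is named in the labels, and it is not stated whether the normal mucosa carried the transgene. Nothing states that the 8 samples are from 8 animals, so p-values reflect the spread among these samples alone, and some of it may be technical.

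The active proteases among them share a zinc ion in the active site and are made as inactive precursors. Some ADAMs, such as Adam11, Adam22 and Adam23, have no protease activity. MMPs cut collagen, elastin, proteoglycans and other parts of the extracellular matrix, ADAMs sit in the cell membrane and release the outer parts of growth factors and receptors, and ADAMTS proteases are secreted and trim proteoglycans and procollagens. TIMPs block the active site of MMPs and of some ADAM and ADAMTS proteases. In the stomach, as in other organs, most MMPs are low in resting tissue and are known to rise in inflammation, wound repair and cancer, in stromal and inflammatory cells as well as in epithelium.

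Values are log2 expression values, so a difference of 1 is 2-fold. Background control probes, which match no mouse sequence, had medians of 6.0 to 6.2 in adenocarcinoma, against 6.2 to 6.4 in normal mucosa. Exon control probes exceeded intron control probes by 3.9 to 4.5 in the tumours and by 3.6 to 4.0 in the normal samples. The normal samples carried their labelled identity: the acid pump subunit Atp4a was at 14.0 to 14.1 and the surface mucin Muc5ac at 14.0 to 14.1 on all 4 arrays. In the adenocarcinomas all 5 parietal cell genes had fallen. The 5 epithelial markers differed among themselves. Krt8 was at 13.7 to 13.9 against 13.8 to 13.9 in normal mucosa, and Krt19 at 13.1 to 13.5 against 13.4 to 13.6. Epcam was higher, at 11.8 to 12.2 against 11.1 to 11.5, as was Krt18, at 13.5 to 13.6 against 13.1 to 13.2. Cldn18 was lower, at 13.1 to 13.2 against 13.7 to 13.8. Xist, the RNA of the inactive X chromosome of females, was at 6.2 to 6.6 in the tumours but at 11.6 to 12.7 in the normal samples, and the Y-linked Ddx3y was at 9.5 to 11.0 against 6.2 to 6.6. Sex and tissue therefore cannot be told apart in any difference below. Of the 78 genes only Timp1 lies on the X chromosome and none on the Y.

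Adenocarcinomas carried more transcript of many secreted, matrix-directed members of these families. Of the 78 genes, 22 rose and 11 fell (limma, adjusted p under 0.05), and 21 of the 22 rises were at least 2-fold. Timp1, Mmp7, Timp3, Mmp2 and Mmp14 rose most, between 10.4-fold and 34.3-fold. Only 1 gene, Adamts15, fell 2-fold or more, as did 3.15% of all genes. Over all 21626 genes 41.8% were called, 18.2% higher and 23.6% lower. The share of the 78 that was called, 42.3%, is near that background, but 26.9% rose at least 2-fold, against 6.63% of all genes. Their median difference was 0.03 on the log2 scale against -0.10 for all genes, and the median of those called higher was 1.99 against 0.78. In these bulk samples, more or fewer cells of a type and more or less RNA per cell cannot be told apart.

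By family, at least 2-fold rises were found for 9 of 23 MMPs (39.1%), 3 of 4 TIMPs, 7 of 19 ADAMTS proteases (36.8%) and 2 of 32 ADAMs. The ADAM share of 6.25% is near the 6.63% of all genes, and 20 of the 32 ADAMs are germ-line genes. Differences between the families were not tested. Of the 22 rises, 21 were also called with each array centred on its own median, 21 with cyclic loess normalisation and 22 with arrays centred on olfactory and vomeronasal receptor genes. These scalings placed the median difference of all genes at -0.24, -0.01 and 0.06. The groups did not overlap for 28 of the 78 genes, against 34.3% of all genes. Adenocarcinoma was the higher group for 22 of them, or 28.2% of the 78, against 15.8% of all genes.

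**Figure D1:**
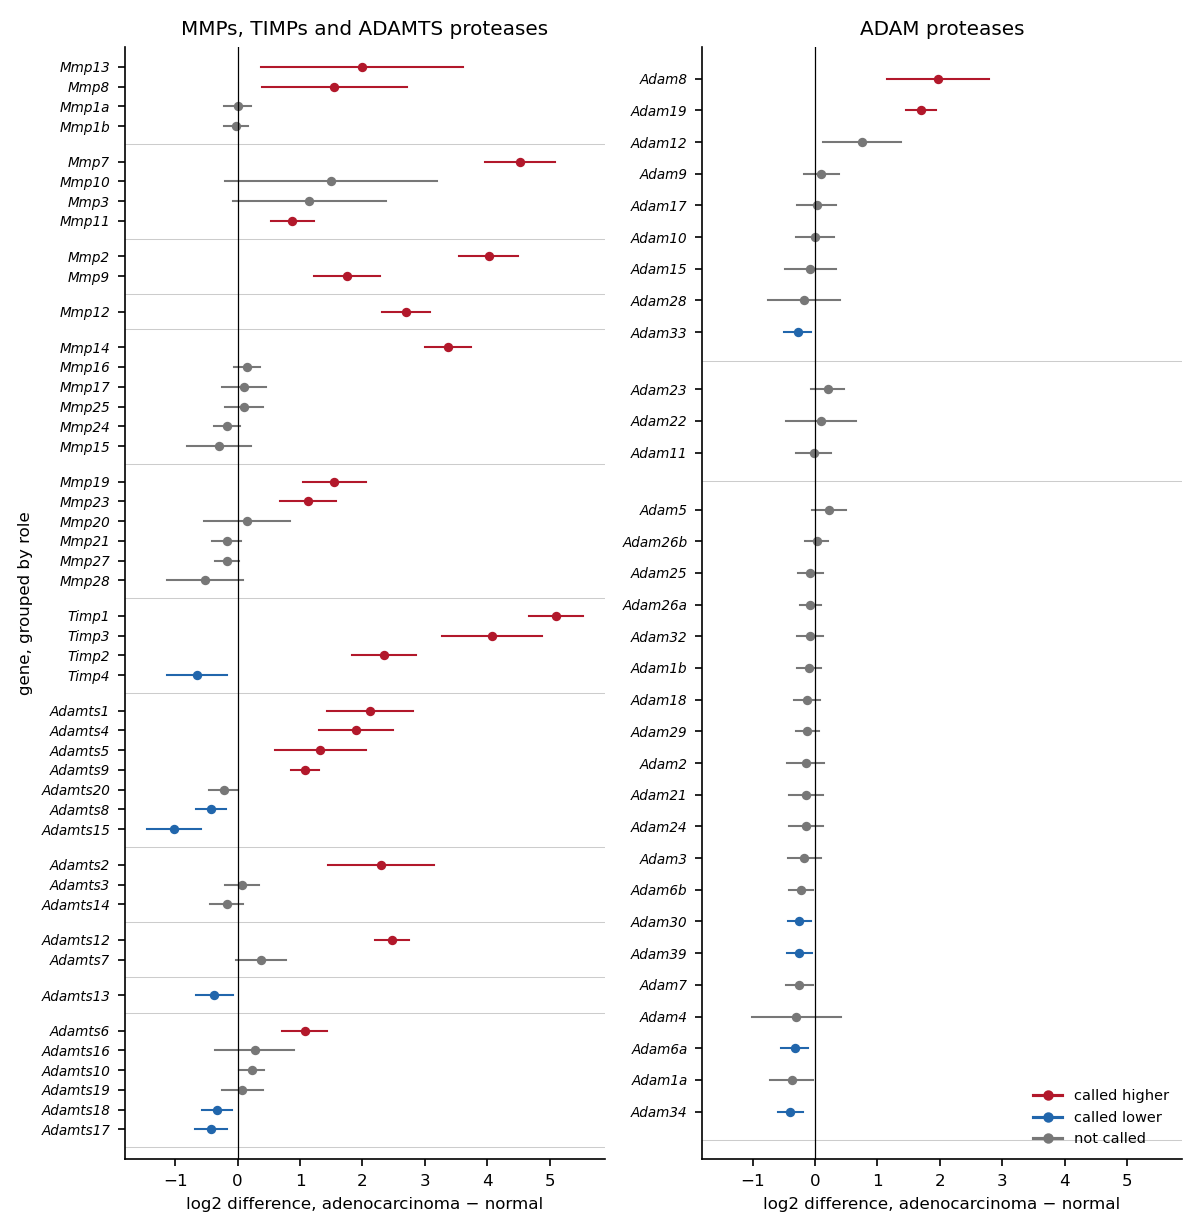
Log2 difference between adenocarcinoma and normal mucosa (horizontal axis; point, with its 95% confidence interval from limma as a line) for all 78 genes. Grey lines part the roles, from top to bottom on the left collagenases, stromelysins with matrilysin, gelatinases, macrophage elastase, membrane-type MMPs, other MMPs, TIMPs and 5 groups of ADAMTS proteases, and on the right ADAMs of the body, of nerve and of the germ line. Red marks the 22 genes called higher and blue the 11 called lower; on the right only Adam8 and Adam19 are red.

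Timp1 encodes a secreted inhibitor of most MMPs and is known to be induced by cytokines and growth factors. On the log2 scale it was at 11.9, 12.4, 12.6 and 12.0 in adenocarcinoma replicates 1 to 4 and at 7.1, 6.8, 7.5 and 7.1 in the normal samples. The groups were thus far apart, with the same range of 0.7 within each. Timp1 rose by 5.10 ± 0.191 (SE, n = 4 per group), or 34.3-fold (adjusted p = 3.91e-07). It lies on the X chromosome from 20447292 to 20451863 in the deposited table, which names no genome build. No other gene among the 78 rose as much.

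Timp3, the inhibitor that binds to the matrix and also blocks ADAM17 and the aggrecan-cleaving ADAMTS proteases, was at 11.9, 12.2, 12.0 and 10.4 in the adenocarcinomas. Its normal values were 7.8, 7.7, 7.4 and 7.3. Adenocarcinoma replicate 4 stood below the other tumours but above all normal samples. The rise was 4.08 ± 0.356 (16.9-fold, adjusted p = 5.08e-05).

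Timp2, which blocks MMPs and also helps MMP14 to activate the precursor of MMP2, was at 11.1, 11.6, 12.0 and 10.9 against 9.2, 8.8, 9.0 and 9.2. All 4 adenocarcinomas lay above all normal samples, and the rise was 2.35 ± 0.227 (5.1-fold, adjusted p = 9.16e-05). Timp4, an inhibitor known mainly from the heart, differed from the other 3. It was at 6.9, 7.7, 7.2 and 6.8 against 7.5, 7.6, 8.1 and 8.0, so adenocarcinoma replicate 2 lay above 2 of the normal samples. Its fall of 0.65 ± 0.214 (adjusted p = 0.038) was lost under 8 of 16 alternatives, among them cyclic loess (adjusted p = 0.128) and centring on receptor genes (adjusted p = 0.153).

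MMP14, TIMP2 and MMP2 form a known set: on the cell surface, MMP14 that has bound TIMP2 holds the precursor of MMP2, which another MMP14 molecule, free of TIMP2, then cuts. Mmp14, the membrane-type collagenase, was at 11.9, 11.6, 11.9 and 11.2 in the adenocarcinomas and at 8.4, 8.1, 8.2 and 8.4 in normal mucosa. Mmp2, gelatinase A of fibroblasts, was at 11.8, 12.1, 12.8 and 12.7 against 8.4, 8.4, 8.2 and 8.3. For both genes every adenocarcinoma lay far above every normal sample. Mmp14 rose by 3.38 ± 0.163 (10.4-fold, adjusted p = 1.91e-06) and Mmp2 by 4.03 ± 0.210 (16.3-fold, adjusted p = 2.76e-06). The other 5 membrane-type genes, Mmp15, Mmp16, Mmp17, Mmp24 and Mmp25, gave no call, with differences from -0.30 to 0.15. For Mmp16 the 95% interval was -0.06 to 0.36, and for Mmp15, with the widest interval, it was -0.82 to 0.22 (Mmp16 was called with cyclic loess, adjusted p = 0.00978, and with centring on receptor genes, adjusted p = 0.0439; Mmp24 with median centring, adjusted p = 0.0309, and with the mean of its probe sets, adjusted p = 0.0416). The probe set that represents Mmp24 is on the minus strand, and the other one, on the plus strand, was called lower (-0.33 ± 0.0879, adjusted p = 0.019).

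Mmp9, gelatinase B, a product of neutrophils and macrophages, rose less than Mmp2. Its values were 9.1, 9.6, 10.0 and 10.2 in the adenocarcinomas and 8.0, 7.6, 8.2 and 8.1 in normal mucosa. Every tumour lay above every normal sample, and the rise was 1.75 ± 0.235 (3.36-fold, adjusted p = 0.000585). Mmp19, which cuts basement membrane proteins, rose by 1.55 ± 0.223 (2.93-fold, adjusted p = 0.000846), and Mmp23 by 1.13 ± 0.200 (2.18-fold, adjusted p = 0.00265). Mmp11, stromelysin-3, known from fibroblasts around carcinomas, rose by 0.88 ± 0.151, just under 2-fold (1.83-fold, adjusted p = 0.00228). Mmp28, an MMP of epithelia, was at 8.7 to 10.0 against 9.7 to 10.4 (adjusted p = 0.14).

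**Figure D2:**
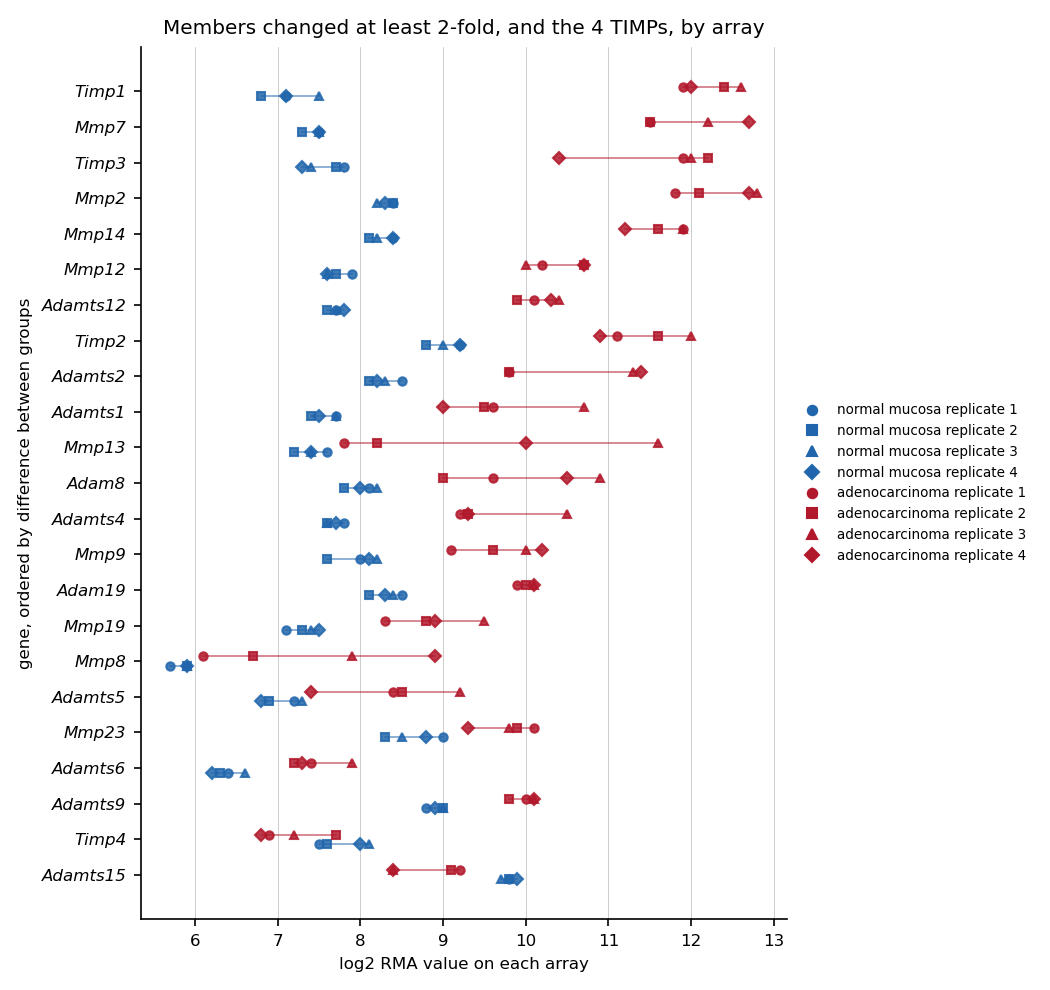
Log2 expression value (horizontal axis) on each of the 8 arrays for the 22 genes called and changed at least 2-fold and for Timp4, ordered by the difference between groups. Blue symbols are normal mucosa and red symbols adenocarcinoma, symbol shape gives the replicate and lines the range of a group; values of different genes come from different probes and are not to be set against each other. The red and blue ranges are apart for every gene shown except Timp4, and red ranges are long for Mmp13 and Mmp8.

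Of the MMP genes, 10 lie side by side on chromosome 9, in the deposited table from 7272514 (start of Mmp13) to 7699585 (end of Mmp7), in the order Mmp13, Mmp12, Mmp1b, Mmp3, Mmp1a, Mmp10, Mmp8, Mmp27, Mmp20 and Mmp7. They did not move as one. Mmp7 and Mmp12 rose in all 4 adenocarcinomas, Mmp13, Mmp3, Mmp10 and Mmp8 were high mainly in replicates 3 and 4, and Mmp1a, Mmp1b, Mmp27 and Mmp20 gave no call. The genes of the cluster beyond those called were named after their values were seen.

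Mmp7 encodes matrilysin, a small MMP made by epithelial cells. It was at 11.5, 11.5, 12.2 and 12.7 in the adenocarcinomas and at 7.5, 7.3, 7.5 and 7.5 in normal mucosa. Every tumour lay far above every normal sample. The rise was 4.53 ± 0.251 (23.0-fold, adjusted p = 3.68e-06), the largest rise of any protease in the 3 families. Mmp12, macrophage elastase, was at 10.2, 10.7, 10.0 and 10.7 against 7.9, 7.7, 7.6 and 7.6. It rose by 2.70 ± 0.170 (6.5-fold, adjusted p = 7.76e-06), again with no overlap.

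Mmp13, the main interstitial collagenase of rodents, was at 7.8, 8.2, 11.6 and 10.0 in the adenocarcinomas against 7.6, 7.2, 7.4 and 7.4. Replicates 1 and 2 lay just above the normal samples, and replicates 3 and 4 far above them. Its mean difference of 2.0 ± 0.717 had an adjusted p of 0.0497 and was not called under 12 of 16 alternatives (adjusted p of 0.0504 to 0.105 in these). Without adenocarcinoma replicate 3 the difference was 1.27 (adjusted p = 0.0543). Mmp8, the collagenase of neutrophils, was at 6.1, 6.7, 7.9 and 8.9 against 5.7, 5.9, 5.9 and 5.9. All 4 normal values and 1 adenocarcinoma value did not exceed the median of the background probes, so its rise is given as at least 2.18-fold. This bound was not tested. The limma call was made on the difference of the deposited values (1.55 ± 0.513, adjusted p = 0.0384). Mmp8 was not called under 7 of 15 alternatives (adjusted p of 0.0576 to 0.0885 in these).

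The stromelysins Mmp10 and Mmp3 activate other MMPs. Mmp10 was at 7.9, 7.7, 11.3 and 10.6 in the adenocarcinomas against 7.9, 7.8, 7.8 and 8.0. Mmp3 was at 6.5, 7.0, 9.5 and 7.5 against 6.7, 6.4, 6.5 and 6.3. Replicates 1 and 2 of the adenocarcinomas lay at the level of normal mucosa for Mmp10, and replicate 1 for Mmp3. The mean differences of 1.5 ± 0.751 and 1.15 ± 0.542 were therefore smaller than the spread between tumours allows to call (adjusted p = 0.132 and 0.113), although Mmp3 was called without adenocarcinoma replicate 1 (1.53, adjusted p = 0.0437).

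Mmp1a and Mmp1b, the mouse counterparts of human interstitial collagenase, did not exceed the median of the background probes on any of the 8 arrays. Mmp27 was at 6.5 to 6.7 against 6.7 to 6.9 (difference -0.18 ± 0.0864, adjusted p = 0.127; adjusted p = 0.0195 after median centring). Mmp20, the enamel protease, was at 6.8, 6.9, 6.8 and 8.3 against 7.0 to 7.2, so a single adenocarcinoma, replicate 4, stood above the normal samples (adjusted p = 0.708 for the means).

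**Figure D3:**
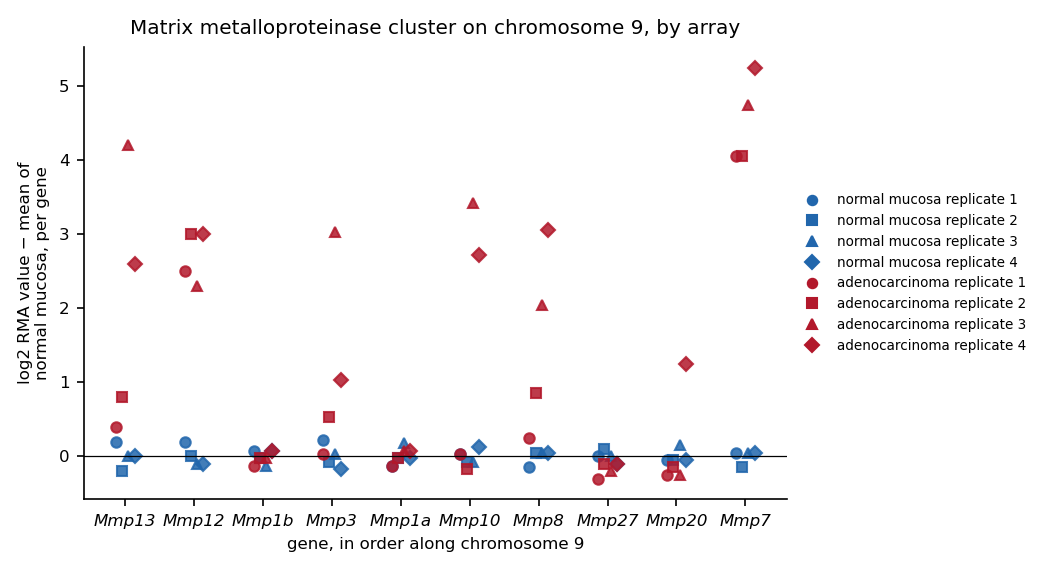
Log2 expression value minus the gene's mean in normal mucosa (vertical axis) on each array, for the 10 MMP genes of chromosome 9 in their order along the chromosome. Blue symbols are normal samples and red symbols adenocarcinomas, by replicate. Red symbols stand together above the blue ones for Mmp12 and Mmp7, whereas for Mmp13, Mmp3, Mmp10 and Mmp8 they are spread, with replicates 3 and 4 on top.

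The promoters of the cluster are shown because its genes differ in response while many share a motif. Many MMP promoters are known to carry a site for AP-1, the dimer of Fos and Jun proteins, close to a TATA box. RefSeq promoters of assembly GRCm38.p6 were available for 48 of the 78 genes, and the 250 bases before the transcript start were searched for TGAGTCA on either strand (its other strand reads TGACTCA) and for TATAAA on the strand of the gene. Matches of these motifs cannot overlap. The AP-1 motif was found for 7 of 10 genes of the cluster and for 2 of the other 38, against 5.16% of 27025 genes with a promoter. TATAAA was found for 7 of 10 and 3 of 38, against 8.94%, and both in the same promoter for 6 of 10, against 0.574%. The last 120 bases before the start follow for the cluster genes other than Mmp27 and Mmp20, 5′ to 3′, with full matches in capitals.
Mmp7 (chr9:7691970-7692089, plus strand): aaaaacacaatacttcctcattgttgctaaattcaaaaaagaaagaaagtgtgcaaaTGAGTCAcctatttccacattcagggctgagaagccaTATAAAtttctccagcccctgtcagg
Mmp12 (chr9:7347254-7347373, plus strand): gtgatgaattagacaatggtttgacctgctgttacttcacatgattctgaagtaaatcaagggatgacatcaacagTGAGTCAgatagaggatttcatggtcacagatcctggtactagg
Mmp13 (chr9:7272394-7272513, plus strand): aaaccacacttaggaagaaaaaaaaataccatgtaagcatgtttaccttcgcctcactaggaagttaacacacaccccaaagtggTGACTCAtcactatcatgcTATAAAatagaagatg
Mmp3 (chr9:7445702-7445821, plus strand): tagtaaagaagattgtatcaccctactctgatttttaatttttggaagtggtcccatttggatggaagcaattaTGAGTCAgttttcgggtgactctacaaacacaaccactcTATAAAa
Mmp10 (chr9:7502222-7502341, plus strand): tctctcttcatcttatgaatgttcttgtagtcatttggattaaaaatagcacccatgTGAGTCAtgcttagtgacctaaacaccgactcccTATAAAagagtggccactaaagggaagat
Mmp1a (chr9:7464021-7464140, plus strand): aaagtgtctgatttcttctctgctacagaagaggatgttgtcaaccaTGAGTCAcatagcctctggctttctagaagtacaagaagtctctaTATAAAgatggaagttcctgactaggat
Mmp1b (chr9:7388027-7388146, minus strand): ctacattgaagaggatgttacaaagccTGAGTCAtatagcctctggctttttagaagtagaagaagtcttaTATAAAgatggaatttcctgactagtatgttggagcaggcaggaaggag
Mmp8 (chr9:7558309-7558428, plus strand): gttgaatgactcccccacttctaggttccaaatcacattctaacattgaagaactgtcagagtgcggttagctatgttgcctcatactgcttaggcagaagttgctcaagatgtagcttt

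The AP-1 motif begins at position -63 before the start in Mmp7, -44 in Mmp12, -35 in Mmp13, -46 in Mmp3, -63 in Mmp10, -73 in Mmp1a and -93 in Mmp1b. It is thus present in the promoters of Mmp7 and Mmp12, which rose in all 4 tumours, of Mmp13, Mmp3 and Mmp10, which were high in some, and of Mmp1a and Mmp1b, which stayed at background. Mmp8 has neither motif in these 250 bases, and neither have Mmp27 and Timp1. Mmp20 has TATAAA at position -58 but no AP-1 motif. For Mmp7 and Mmp12 RefSeq gives 2 starts, of which the one with the motif is shown. A match is a description of the letters and does not show that a factor binds.

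Among ADAMs with a working protease in tissues of the body, most changed little. Of these 9, 2 rose and 1 fell, beside 18.2% of all genes called higher and 23.6% lower. Adam8, a sheddase of leukocytes, was at 9.6, 9.0, 10.9 and 10.5 in the adenocarcinomas and at 8.1, 7.8, 8.2 and 8.0 in normal mucosa. Adam19, also called meltrin beta, was at 9.9, 10.0, 10.1 and 10.1 against 8.5, 8.1, 8.4 and 8.3. Neither gene had overlapping groups, and Adam19 had the narrowest spread of tumours among the 2-fold rises (SD of 0.0957). Adam8 rose by 1.98 ± 0.362 (3.93-fold, adjusted p = 0.00316) and Adam19 by 1.70 ± 0.106 (3.25-fold, adjusted p = 7.11e-06). Adam12, known from activated fibroblasts, was at 7.8, 8.3, 8.7 and 9.3 against 7.6 to 8.0 and just missed the threshold (0.75 ± 0.275, adjusted p = 0.0546). It was called without adenocarcinoma replicate 1 (0.99, adjusted p = 0.00909), with cyclic loess (adjusted p = 0.0435) and with centring on receptor genes (adjusted p = 0.0385).

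The broadly expressed sheddases gave no call. Adam10, the main sheddase of Notch receptors and cadherins, was at 12.2, 12.2, 11.7 and 11.8 in the adenocarcinomas and at 12.1, 11.9, 11.9 and 12.0 in normal mucosa. Adam17, which releases tumour necrosis factor and ligands of the EGF receptor, was at 10.9, 10.8, 10.3 and 10.9 against 10.7, 10.8, 10.6 and 10.7. For both genes the groups overlapped. The 95% intervals of the log2 difference were -0.30 to 0.30 for Adam10, -0.29 to 0.34 for Adam17, -0.18 to 0.38 for Adam9 and -0.48 to 0.33 for Adam15, so a 2-fold difference lies outside each of them. Adam28 was at 11.4, 10.7, 10.0 and 10.3 against 10.7 to 10.8, with an interval of -0.75 to 0.40. These genes were named after their values were seen. Adam33 fell by 0.28 ± 0.0955 (adjusted p = 0.0452), a call lost under 10 of 16 alternatives (adjusted p up to 0.386).

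Adam11, Adam22 and Adam23, adhesion proteins of nerve cells without protease activity, gave no call; Adam23 had the smallest adjusted p (0.20 ± 0.117, adjusted p = 0.187) and was called with cyclic loess (0.39, adjusted p = 0.0369) and with centring on receptor genes (0.36, adjusted p = 0.0492). The 20 measured ADAMs of the germ line, most of them known from sperm, were low throughout: 13 of them did not exceed the background median on any of the 8 arrays, as did Mmp1a and Mmp1b. Of the 20, 4 were called lower, Adam34, Adam6a, Adam30 and Adam39, by 0.25 to 0.40 on the log2 scale, a share near the 23.6% of all genes called lower. A second probe set of Adam34 was not called when fitted on its own (-0.20 ± 0.0871, adjusted p = 0.0916). Adam34, Adam6a and Adam39 were among the 13 at background, whereas Adam30 exceeded the background median on all 8 arrays. The background probes themselves had medians of 6.0 to 6.2 in the tumours and 6.2 to 6.4 in normal mucosa, and their part in these calls was not tested. Of the germ cell markers Ddx4, Dazl, Prm1, Prm2, Tnp1, Tnp2 and Acrv1, 3 of 7 were called lower (median difference -0.25).

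Proteoglycan-cutting ADAMTS proteases went both ways. Adamts1, Adamts4, Adamts5 and Adamts9 rose and Adamts15 fell by 2-fold. Adamts1, which is known to be induced in inflammation and cuts versican and aggrecan, was at 9.6, 9.5, 10.7 and 9.0 against 7.7, 7.4, 7.7 and 7.5. Adamts4, an aggrecanase, was at 9.2, 9.3, 10.5 and 9.3 against 7.8, 7.6, 7.6 and 7.7. Adamts5, the other main aggrecanase, was at 8.4, 8.5, 9.2 and 7.4 against 7.2, 6.9, 7.3 and 6.8. Adenocarcinoma replicate 3 was the highest for all 3 genes, and every adenocarcinoma lay above every normal sample. The rises were 2.13 ± 0.305 (4.36-fold, adjusted p = 0.000843), 1.90 ± 0.263 (3.73-fold, adjusted p = 0.000699) and 1.33 ± 0.323 (2.51-fold, adjusted p = 0.0121).

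Adamts15, which also cuts aggrecan and versican, was at 9.2, 9.1, 8.4 and 8.4 in the adenocarcinomas and at 9.8, 9.8, 9.7 and 9.9 in normal mucosa. Adenocarcinoma replicates 3 and 4 were the lowest, and no tumour reached the normal range. The fall was 1.03 ± 0.193 (2.03-fold, adjusted p = 0.00359), and it was the only fall of the 11 that was also called under every alternative. The genes lie in neighbouring pairs. Adamts1 (chromosome 16 from 85794072 to 85803344 in the deposited table) is followed by Adamts5 (85862665 to 85900529), and both rose. Adamts15 (chromosome 9 from 30706738 to 30730037) is followed by Adamts8. The probe set that represents Adamts8 (30750319 to 30750831) fell by 0.43 ± 0.109 (adjusted p = 0.0147), but it is on the minus strand, whereas the other probe set of that gene is on the plus strand and differed by 0.13 ± 0.105 (adjusted p = 0.352). The call for Adamts8 was lost with the mean of both (adjusted p = 0.222) and after centring on receptor genes (adjusted p = 0.0912).

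Adamts9, which also cuts proteoglycans, was at 10.0, 9.8, 10.1 and 10.1 against 8.8, 9.0, 9.0 and 8.9 in the probe set that represents it, a rise of 1.08 ± 0.0983 (2.11-fold, adjusted p = 6.74e-05). Of the 6 probe sets of the gene, 5 rose when each was fitted on its own among 24975. The other 4 of these rose by 1.5, 1.65, 1.93 and 2.10, more than the one chosen for its brightness, and the sixth differed by 0.23 ± 0.125 (adjusted p = 0.168). The size of the rise of Adamts9 thus depended on the probe set by more than its SE. Adamts3, with 16 probe sets, was not called in the one that represents it (0.08 ± 0.121, adjusted p = 0.63), and 2 of the 16 rose (0.38 and 0.80).

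**Figure D4:**
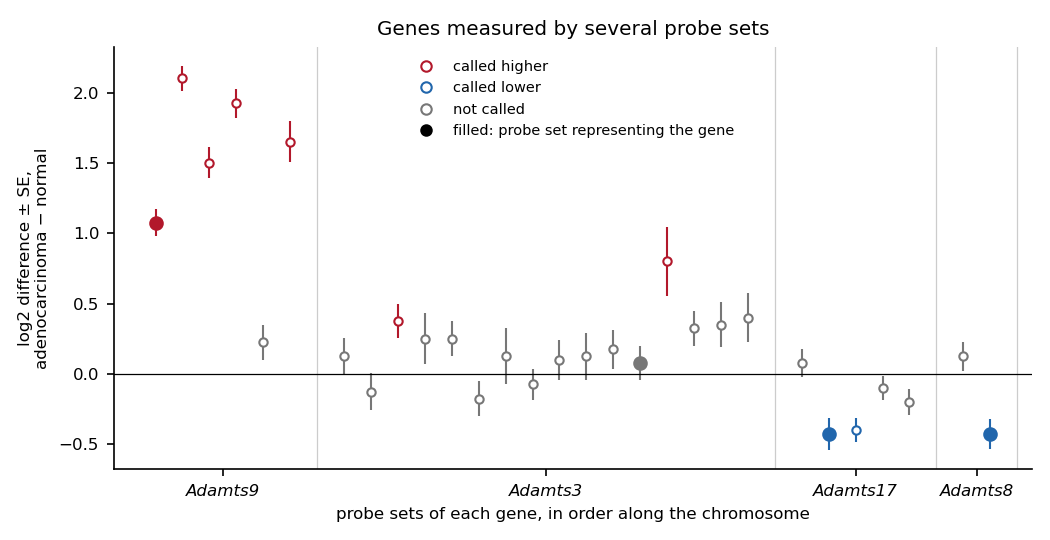
Log2 difference between adenocarcinoma and normal mucosa ± SE (vertical axis) for each probe set of 4 ADAMTS genes, in order along the chromosome. Filled points are the probe sets that represent the genes, red marks those called higher and blue those called lower. The filled point of Adamts9 is the lowest of its 5 red ones, and both probe sets of Adamts8 lie on opposite sides of 0.

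Among ADAMTS proteases that process procollagen, Adamts2, which removes the amino-terminal propeptide of fibrillar collagens, was at 9.8, 9.8, 11.3 and 11.4 in the adenocarcinomas. It was at 8.5, 8.1, 8.3 and 8.2 in normal mucosa. The tumours fell into a lower pair (replicates 1 and 2) and a higher pair (3 and 4), all above normal mucosa, with a rise of 2.30 ± 0.376 (4.92-fold, adjusted p = 0.00173). Adamts3 and Adamts14, with the same activity, gave no call. Adamts12, which cuts cartilage oligomeric matrix protein, was at 10.1, 9.9, 10.4 and 10.3 against 7.7, 7.6, 7.7 and 7.8. It rose by 2.48 ± 0.119 (5.56-fold, adjusted p = 1.80e-06), with the smallest p of all ADAMTS genes, while Adamts7, which cuts the same protein, was at 8.5 to 9.4 against 8.3 to 8.6 (0.38 ± 0.178, adjusted p = 0.114; adjusted p = 0.0376 after centring on receptor genes). Adamts6 rose by 1.08 ± 0.160 (2.11-fold, adjusted p = 0.00103), with 2 of 4 normal values at or below background. Adamts13, which cuts von Willebrand factor, fell by 0.38 ± 0.130 (adjusted p = 0.0447), and Adamts17 and Adamts18 by 0.43 and 0.33. The calls for Adamts13 and Adamts18 were each lost under 7 of 16 alternatives (adjusted p up to 0.25 and 0.282) and that for Adamts17 under 4 of 16 (adjusted p up to 0.102). Of the 5 probe sets of Adamts17, 2 fell, and with their mean the difference was -0.21 (adjusted p = 0.0612).

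The number of falls depended on the scaling. Of the 11 falls, 9 were at most 0.5 on the log2 scale, and the number called lower was 23 with median centring, 3 with cyclic loess and 1 with centring on receptor genes. They were 7 and 5 without adenocarcinoma replicates 1 and 2, and 5, 3 and 3 without normal replicates 1, 3 and 4. The number of rises stayed between 20 and 28 under the same alternatives. Apart from Mmp13 and Mmp8, the 20 other rises were called under every alternative that tested them.

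The tumours differed among themselves more than the normal samples did. The range over 4 arrays was larger in adenocarcinoma for 51 of the 78 genes and for 19 of the 21 with 2-fold rises. The median SD of the 78 genes was 0.229 in adenocarcinoma and 0.127 in normal mucosa, against 0.189 and 0.129 over all genes. Adenocarcinoma replicate 3 alone was the highest tumour for 11 of the 21 genes, and replicate 1 alone the lowest for 8. Genes with a range of at most 1 between tumours numbered 9, among them Timp1, Mmp14, Mmp12, Adamts12 and Adam19. Values in both replicates 3 and 4 exceeded those in both other tumours for Adam19, Adam8, Adamts12, Adamts2, Adamts9, Mmp13, Mmp19, Mmp2, Mmp7, Mmp8 and Mmp9.

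Markers of several cell types rose along with these genes, and those of others did not. Of all genes, 18.2% were called higher and 23.6% lower. Of the fibroblast markers 9 of 9 rose, with a summed intensity (log2 of the sum over the list) of 13.99 to 15.04 in the tumours against 11.33 to 11.51 in the normal samples. Of the macrophage markers 9 of 9 rose, with sums of 13.60 to 14.15 and 10.86 to 11.03. All 5 endothelial markers (12.08 to 13.21 against 9.49 to 9.59) and all 6 smooth muscle markers (12.51 to 14.88 against 10.46 to 10.62) rose as well. In adenocarcinoma replicate 1, however, Cnn1 (8.1) lay within its normal range of 7.8 to 8.1, and Myh11 (8.3) just above its range of 8.0 to 8.2. Acta2 (11.8), Tagln (9.7), Des (8.8) and Actg2 (8.6) lay above their normal ranges in that tumour. Among neutrophil markers 5 of 9 rose and 2 fell (12.06 to 12.55 against 10.52 to 10.67). Of 7 T and B cell markers 1 rose, and of 6 pancreatic acinar markers 0 rose and 2 fell. All 4 measured chief cell markers and 4 of 5 pit cell markers fell. Sums were highest in adenocarcinoma replicate 3 for the fibroblast, endothelial and smooth muscle lists, and lowest in replicate 1. The macrophage sum was highest in replicates 2 and 4 and lowest in replicate 1. The neutrophil sum was highest in replicate 1 and lowest in replicate 2, but its order followed Ltf, the brightest marker of the list in replicate 1. Ltf was at 11.8, 10.2, 9.4 and 10.5 in adenocarcinoma replicates 1 to 4. Of the other neutrophil markers that rose, S100a8 (8.9), Csf3r (8.2) and Cxcr2 (8.4) were lowest in replicate 1. S100a9 (9.5) was tied lowest in replicates 1 and 2. Of the fibroblast markers, Lum and Fap did not exceed the background median on any of the 4 normal arrays. The part of cell makeup in the changes given here was not tested.

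Genes that activate MMP precursors also changed. Of 9 measured, 4 rose, 3 fell and 2 gave no call, beside 18.2% of all genes called higher and 23.6% lower. Plat (3.43 ± 0.292) and Plau (2.03 ± 0.160), which encode the tissue and urokinase activators of plasminogen, rose, as did the urokinase receptor gene Plaur (2.0 ± 0.244) and the proprotein convertase Pcsk5 (1.53 ± 0.218). Plg, the plasminogen gene, was at 7.2 to 7.4 against 7.5 to 7.8, and Furin, the convertase that activates MMP14, fell by 0.68 ± 0.182 (adjusted p = 0.0183). Of 15 genes that otherwise control metalloproteinases, 8 rose and 1, Tspan15, fell. Among those that rose were the broad protease trap A2m (1.75 ± 0.524, groups overlapping), the ADAM10-associated tetraspanin Tspan5 (1.60 ± 0.226) and Reck, a membrane-anchored MMP inhibitor (1.13 ± 0.140). Bsg, which encodes the MMP inducer EMMPRIN, was at 11.9 to 12.3 against 12.1 to 12.2.

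Of 16 genes for transcription factors known to act on MMP promoters, 6 were called higher and 1 lower, together near the 41.8% of all genes called. By direction, 18.2% of all genes were called higher and 23.6% lower. Ets1 rose by 1.48 ± 0.144 (adjusted p = 9.53e-05), and so did Etv4 (0.85 ± 0.220) of the same ETS family. A probe set annotated to Etv5, another ETS gene, rose by 1.10 ± 0.221. In the deposited table it lies on chromosome 10 from 71167036 to 71170604. The probe set of Etv1, also among the 6, lies on chromosome 13 from 104146330 to 104147784. Whether these 2 probe sets measure the Etv5 and Etv1 genes themselves was not tested. Jun, a partner in AP-1, was at 10.3, 10.6, 11.5 and 10.9 in the adenocarcinomas and at 11.6, 11.7, 11.9 and 11.9 in normal mucosa. It fell by 0.95 ± 0.227 (adjusted p = 0.0111), with every tumour below every normal sample. Fos, Fosb, Fosl1, Fosl2, Junb and Jund gave no call (adjusted p of 0.0803 to 0.404).

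Among 9 related metzincins outside the symbol rule 2 rose, a share near the 18.2% of all genes called higher. They were Bmp1 (2.40 ± 0.134, adjusted p = 3.91e-06), which encodes the procollagen C-proteinase, and Tll1 (0.98 ± 0.299, adjusted p = 0.0292). Adamts2, given above, removes the other propeptide of procollagen. Of 7 ADAMTS-like genes, whose products resemble ADAMTS proteases but lack the protease part, 4 rose and 1 fell. Of all genes, 18.2% were called higher and 23.6% lower. Adamtsl1 (1.20 ± 0.257), Adamtsl4 (1.10 ± 0.166) and Adamtsl3 (0.73 ± 0.130) rose, and Thsd4 fell by 1.15 ± 0.129 (adjusted p = 0.000218).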

How the data were processed

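Total RNA of 4 gastric adenocarcinomas and 4 normal gastric mucosa samples was labelled with biotin and hybridised to Affymetrix arrays, per the labels' protocols. The authors deposited log2 expression values with 1 decimal, made with RMA (background correction, normalisation and probe summary) per the submitters' processing notes, which give no version or settings. The deposited annotated table and series value table held the same 284448 values (0 differences, tolerance 1e-06). Each of 21626 genes with a single symbol was represented by its probe set of highest mean over the 8 arrays, with no filter on low values, so all 78 family genes were tested. Their level against background was judged by the median of 45 background control probe sets per array. The precision is limited by the number of arrays.

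Groups were compared with limma 3.58.1 in R 4.3.3, using lmFit with moderated variances and Benjamini-Hochberg adjustment over all genes, and called at an adjusted p under 0.05 (two-sided). Log2 differences are tumour minus normal, with the SE and 95% interval from the fit. Genes named are those called and changed at least 2-fold, the TIMPs, the smallest p of a role list with no call, and up to 4 called genes of each pathway list. Others are named after their values were seen, and a gene that this rule names is not reported here. The gene family, lists and alternatives were chosen with earlier results of these data known. Alternatives were 3 scalings (median centring, cyclic loess, centring on receptor genes), 32 units added before log2, omission of the dimmest 30% of genes, averaging of each gene's probe sets, trend and robust eBayes, the replicate number as a block and each array left out. A fit of each probe set on its own was added after seeing the data. The code was tested on simulated data. No batch is named in the labels. Figures used Python 3.11.15, pandas 2.3.3 and matplotlib 3.10.9.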

Additional observations from a re-analysis of the deposited data

Results flagged for a closer look

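Among the 24 genes named by rule, 48 groups of 4 arrays were checked for a single array far from the others, which chance alone finds in about 1 of 20 groups, and 5 groups had one. In adenocarcinoma, Adamts4 in replicate 3 (10.5) lay 1.2 above the next tumour, a gap that made up a share of 0.923 of the range of the 4 tumours. Timp3 in adenocarcinoma replicate 4 (10.4) lay 1.5 below the next tumour, a share of 0.833 of the range. The other 3 were normal samples that differed by 0.2, against a rounding step of 0.1: Mmp7 in replicate 2 (7.3), Mmp8 in replicate 1 (5.7) and Adam23 in replicate 4 (7.3).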

How the results depend on the processing

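The number of genes called higher (22) and of those at least 2-fold higher (21) stayed within 1.5 times of these counts under all 16 alternatives, from 20 to 28 and from 17 to 22. The number called lower (11) did not: it was 23 with median centring, 3 with cyclic loess, 1 with centring on receptor genes and 6 without the dimmest 30% of genes, which also leaves fewer genes to test. With each array left out in turn it lay between 3 and 14, the number higher between 20 and 24 and the number at least 2-fold higher between 18 and 22. The cause of these shifts was not tested. Of 381 values of the 24 named genes under alternatives, 352 kept their direction and side of the threshold, 27 lost a call (Mmp13, Mmp8 and Timp4), 2 gained one (Adam23) and 0 reversed. Whether the replicate numbers pair the samples could not be decided with 4 arrays per group. Deviations of same-numbered arrays from their group means correlated at -0.175, 0.0948, 0.158 and 0.0376 across genes. Of the 8 arrays, 3 correlated best with their own number. With the replicate block 21 genes were called higher, 8 lower and 20 at least 2-fold higher. Signal near background limits Mmp8, Adamts6 and most germ-line ADAMs.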

Other observations

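A few genes of these families stood out in a single tumour and are given as values, chosen after they were seen. Adam4, a germ-line ADAM, was at 7.4 in adenocarcinoma replicate 1 and at 5.8 to 6.1 in the other tumours, against 6.3 to 6.9 in normal mucosa. Adam1a was at 7.4 in the same tumour and at 6.7 to 6.9 in the others, against 7.2 to 7.5. Adamts16 was at 8.8 in adenocarcinoma replicate 4 and at 7.4 to 7.6 in the other tumours, against 7.3 to 7.7, and Mmp20 was also highest in replicate 4.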
